A study of Mus musculus with 12 samples.

Results

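The genes described here encode the liver-made proteins of blood clotting and clot dissolution, from tissue factor and the plasma clotting factors to their inhibitors and the fibrinolytic proteins. They were taken as a list of 32 gene symbols, and each gene was represented by its brightest probe set, the one with the highest mean over all 12 arrays. Of the 32 genes, 30 had a probe set that named them alone, and 29 of these passed the filter on dim probe sets and were tested among 13598 genes in all. The expression of Kng2 and Cpb2 was not analysed here. Serpina5, the protein C inhibitor, was under the filter, with means of 3.67 ± 0.112 in treated Clk/Clk, 4.45 ± 0.44 in treated PPARalpha-null, 3.79 ± 0.193 in treated wild-type and 4.20 ± 0.116 in untreated wild-type livers (log2, SD, n = 3 each).

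Gene expression was measured in the livers of 12 male mice, 6 to 12 weeks old, taken at Zeitgeber time 14 (ZT14), that is, 14 h after lights on. There were 3 mice in each of 4 groups. Clk/Clk mutant mice (Jcl:ICR background), PPARalpha-null mice (the 129S4SvJae-PPARalphatm1Gonz/J line crossed with Jcl:ICR) and wild-type mice (Jcl:ICR background) ate bezafibrate at 0.5% w/w of the diet over 5 days, and untreated wild-type mice (Jcl:ICR background) ate the same diet without it. Bezafibrate is a lipid-lowering drug that activates the nuclear receptor PPARalpha, and CLOCK is a transcription factor of the circadian clock, whose Clk allele encodes a mutant protein. The study asked which PPARalpha-regulated genes depend on CLOCK. No mutant was left untreated, so a genotype's own effect and its effect on the drug response cannot be told apart. The null mice also carried another strain's genome in part, so strain and genotype cannot be told apart in them. The labels number the mice of a group but do not say how they were housed or drawn, and the p-values measure the spread between these samples.

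Clotting proceeds as a cascade of proteases, most of them secreted by hepatocytes as inactive precursors. Tissue factor with factor VII starts it, factors VIII, IX and XI amplify it, factor X with factor V turns prothrombin into thrombin, and thrombin turns fibrinogen into fibrin. Antithrombin, heparin cofactor II, and the protein C and protein Z systems restrain the cascade, and plasmin dissolves the clot. Several of these proteins need a vitamin K dependent carboxylation to work.

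The drug comparison in wild type asked how the clotting genes stood in treated livers relative to untreated ones. Most were lower: 18 of the 29 tested genes fell, and 1, tissue factor (F3), rose. A gene was called where its adjusted p was under 0.05 (limma, Benjamini-Hochberg over all 13598 genes) and its change was at least 1.5-fold, which is 0.585 on the log2 scale. Of all tested genes, 7.77% were called lower and 12.8% were called higher in this comparison. The median difference over the 29 genes was -0.71 on the log2 scale, against 0.01 over all tested genes. With the adjusted p alone, 26 members were lower and 1 higher, against 21.6% and 27.3% of all tested genes. All 3 treated livers lay below all 3 untreated livers for 27 members, a pattern seen in 26.1% of all tested genes. Levels are given on the log2 scale for a probe set, a group of array probes for a transcript, so that a difference of 1 is a 2-fold change, and group means are given with their SD over 3 livers. These are values of whole liver, in which fewer cells of a type and less RNA per cell cannot be told apart.

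Among the treated mice, PPARalpha-null livers had higher levels of most of these genes than wild-type livers. Of the 29 genes, 14 were called higher and F3 alone was called lower, against 5.35% and 8.09% of all tested genes. The median difference was 0.57, against 0.01 over all tested genes, and 27 members lay above the treated wild type on every null array (24.3% of all tested genes did). Few members were called between Clk/Clk and treated wild-type livers. There, 1 member, Hrg, was called higher and none lower by limma (2 were lower at an unadjusted p under 0.05), against 2.64% and 6.49% of all tested genes. With the adjusted p alone, 6 were higher and 2 lower, against 10.6% and 14.1%. Both mutant comparisons were made against the same treated wild-type arrays that enter the drug comparison, so the 3 sets of differences are not independent.

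**Figure D1:**
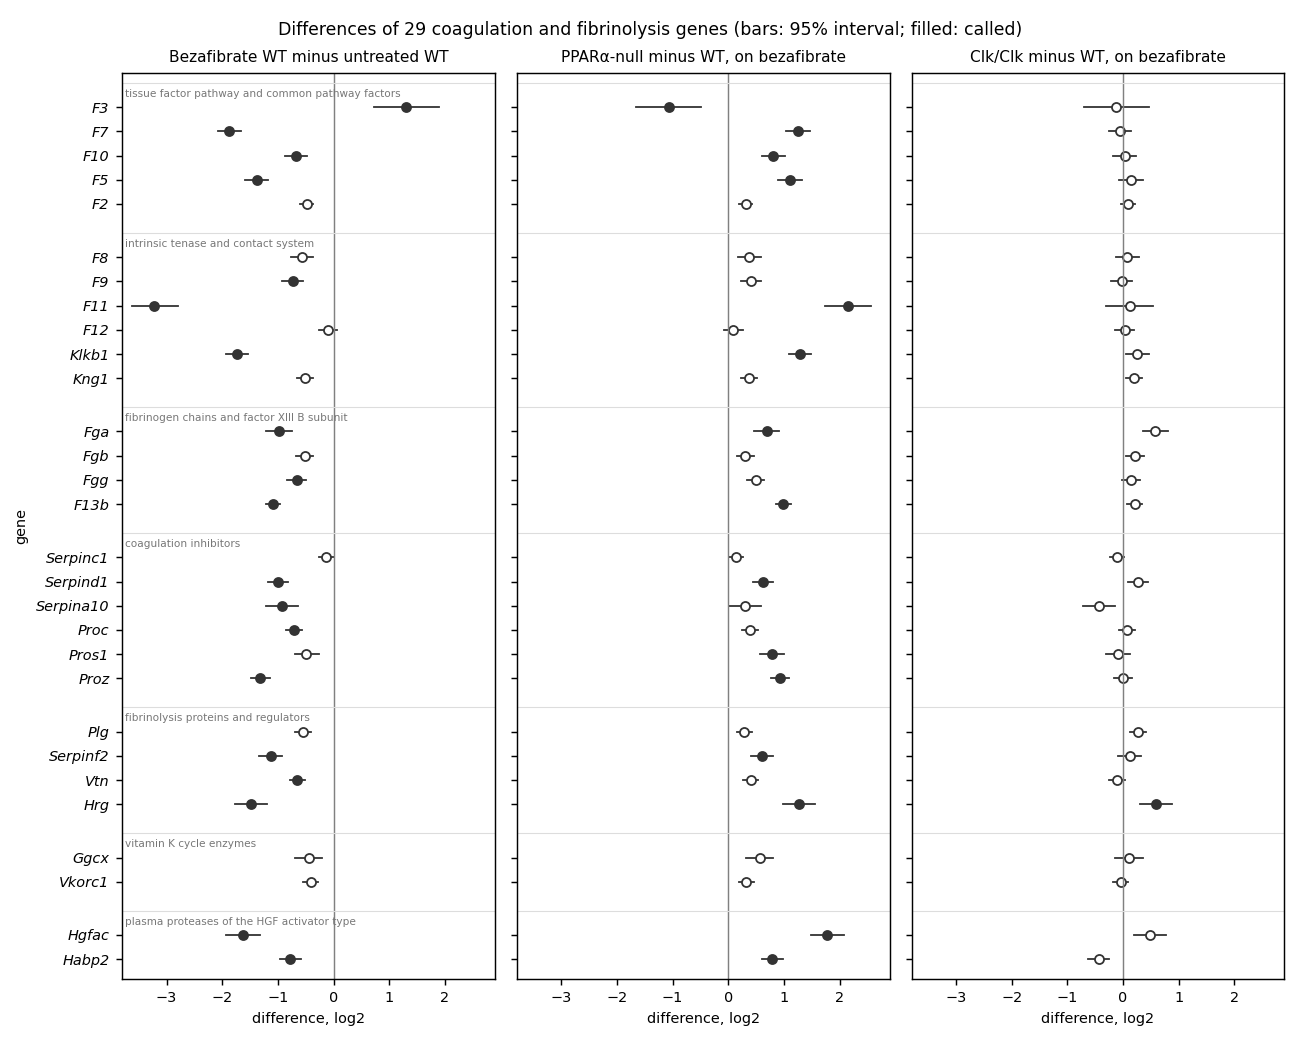
Log2 differences of the 29 tested genes (rows, grouped by role) in treated against untreated wild type, treated null against treated wild type, and treated Clk/Clk against treated wild type, with 95% intervals and filled points for called genes. In the first panel 28 of the points lie left of 0, and F11 lies farthest at -3.22.

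Of the 5 genes of the tissue factor and common pathway, 3 fell with the drug in wild type (F7, F5 and F10), 1 rose (F3), and prothrombin (F2) was not called. The shares of all tested genes were 7.77% lower and 12.8% higher. F7 encodes the protease that works on tissue factor. F7 had log2 values of 9.09, 9.01 and 9.07 in treated Clk/Clk livers and 10.60, 10.21 and 10.27 in treated PPARalpha-null livers, against 9.03, 9.14 and 9.16 in treated wild-type livers and 11.05, 10.99 and 10.92 in untreated wild-type livers. The groups of treated and untreated wild type did not overlap, and F7 was 3.67-fold lower with the drug (log2 difference -1.87, SE 0.0955, adjusted p = 7.05e-08). In treated null livers F7 was 2.38-fold higher than in treated wild type (1.25, SE 0.0955, adjusted p = 3.01e-06), but still below untreated wild type (-0.63, SE 0.0955, adjusted p = 0.00114). Without null replicate 2 or 3 that last difference fell short of 1.5-fold, at -0.55 and -0.58. Clk/Clk and treated wild-type livers overlapped, with a difference of -0.05 (95% interval -0.26 to 0.15).

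F5 encodes the cofactor of factor X. F5 had log2 values of 11.13, 11.37 and 11.57 in treated Clk/Clk livers and 12.38, 12.26 and 12.36 in treated PPARalpha-null livers, against 11.20, 11.17 and 11.29 in treated wild-type livers and 12.64, 12.59 and 12.59 in untreated wild-type livers. It fell with the drug (-1.38, SE 0.0963, adjusted p = 7.28e-07) and was higher in null than in treated wild-type livers (1.11, SE 0.0963, adjusted p = 7.1e-06). The Clk/Clk arrays spread around the treated wild-type ones, and the difference was 0.14 (95% interval -0.08 to 0.35). F10, the protease that cleaves prothrombin, averaged 11.37 ± 0.0708 in Clk/Clk, 12.16 ± 0.0852 in null, 11.34 ± 0.136 in treated wild-type and 12.02 ± 0.146 in untreated wild-type livers (SD, n = 3 each). Its drug difference was -0.68 (SE 0.094, adjusted p = 0.000123), and null livers stood 0.81 above treated wild type (SE 0.094, adjusted p = 6.11e-05). Prothrombin averaged 13.52 ± 0.0319 in Clk/Clk, 13.75 ± 0.0127 in null, 13.43 ± 0.0237 in treated and 13.91 ± 0.0211 in untreated wild-type livers. Its drug difference of -0.48 (SE 0.0543, adjusted p = 2.84e-05) was under 1.5-fold, although no treated wild-type array reached an untreated one.

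Tissue factor, the membrane receptor of factor VII, moved against the other genes. F3 had log2 values of 6.79, 6.76 and 6.68 in treated Clk/Clk livers and 5.94, 5.19 and 6.27 in treated PPARalpha-null livers, against 6.68, 7.12 and 6.80 in treated wild-type livers and 5.05, 5.93 and 5.70 in untreated wild-type livers. All treated wild-type and Clk/Clk arrays lay above all untreated ones, and the null arrays overlapped with the untreated ones. F3 rose with the drug (1.31, SE 0.264, adjusted p = 0.00168) and was lower in null than in treated wild-type livers (-1.07, SE 0.264, adjusted p = 0.00909). Its untreated mean of 5.56 was close to the filter level of 4.87 to 4.92, and its standard error was the largest of the 29. F3 is also made by cells other than hepatocytes. Of 12 macrophage markers, 1 (Cd68) was called higher with the drug, and their mean level ranged from 8.63 to 9.23 in treated and 8.63 to 8.83 in untreated wild type. Null livers had 3 of them called lower than treated wild type, Cd68 (-0.68), Marco (-0.76) and Lyz2 (-0.91), with a mean level of 8.60 to 8.79 in null livers. The part of such cells in the F3 result was not tested.

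**Figure D2:**
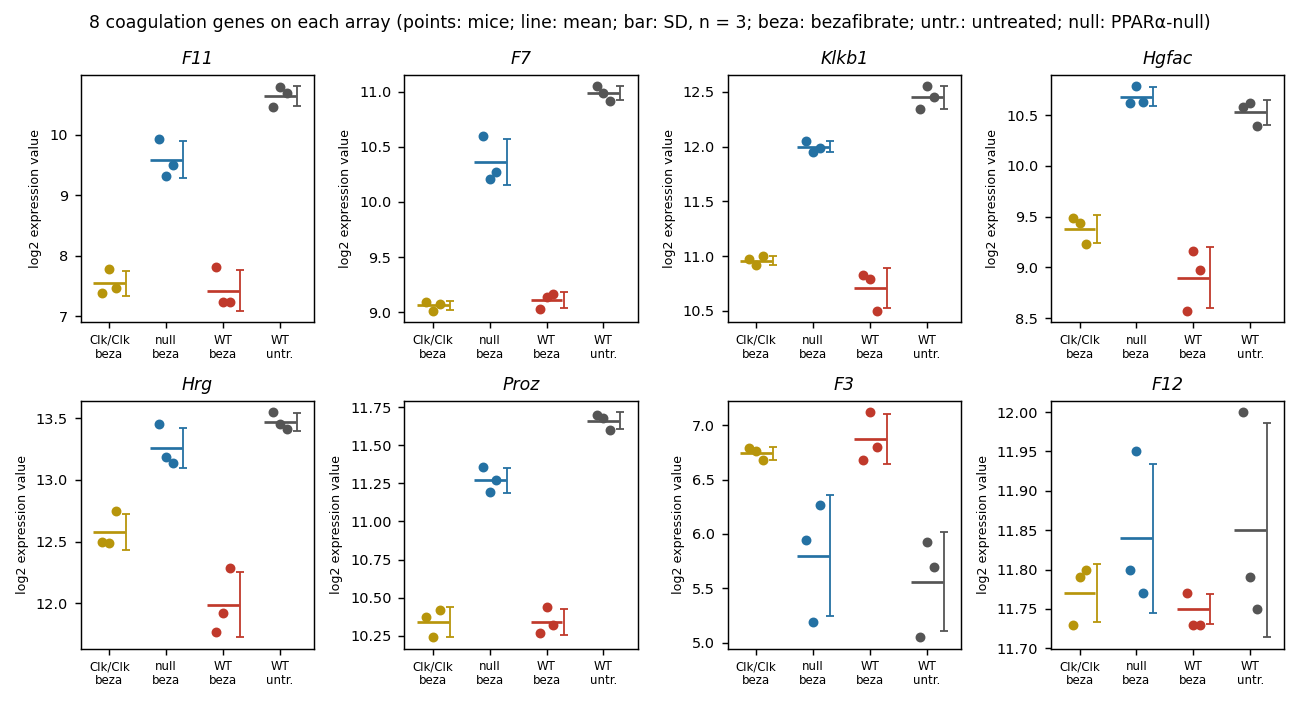
Log2 expression value of 8 of the genes on each array (points), with the group mean (line) and SD (bar, n = 3). For F11, F7, Klkb1, Hgfac, Hrg and Proz the treated wild-type arrays lie below the untreated ones and the null arrays lie between or beside the untreated ones, F3 runs the other way, and the 4 groups of F12 overlap.

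The intrinsic pathway held the largest change among the 29 genes. F11 encodes factor XI, the protease that activates factor IX. F11 had log2 values of 7.38, 7.77 and 7.47 in treated Clk/Clk livers and 9.92, 9.32 and 9.50 in treated PPARalpha-null livers, against 7.81, 7.23 and 7.23 in treated wild-type livers and 10.46, 10.78 and 10.69 in untreated wild-type livers. No treated wild-type or Clk/Clk array came near an untreated one, and the null arrays lay between them. F11 was 9.29-fold lower with the drug in wild type (-3.22, SE 0.188, adjusted p = 1.91e-07). It was 4.45-fold higher in null than in treated wild-type livers (2.15, SE 0.188, adjusted p = 7.42e-06). Treated null livers remained 2.09-fold below untreated wild type (-1.06, SE 0.188, adjusted p = 0.00277). Clk/Clk and treated wild-type livers differed by 0.12 (95% interval -0.30 to 0.53).

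Klkb1, which encodes plasma prekallikrein, the precursor of a contact system protease related to factor XI, is the next gene on the chromosome. Klkb1 had log2 values of 10.97, 10.92 and 11 in treated Clk/Clk livers and 12.05, 11.95 and 11.99 in treated PPARalpha-null livers, against 10.83, 10.79 and 10.50 in treated wild-type livers and 12.34, 12.55 and 12.45 in untreated wild-type livers. Every group was separate from the others on these arrays. Klkb1 fell 3.34-fold with the drug (-1.74, SE 0.0912, adjusted p = 8.51e-08) and was higher in null than in treated wild-type livers (1.29, SE 0.0912, adjusted p = 1.61e-06). Clk/Clk arrays were all above the treated wild-type ones by a mean of 0.26, which did not pass the test (adjusted p = 0.0608).

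F9 encodes the protease that works with factor VIII. F9 had log2 values of 11.12, 11.18 and 11.30 in treated Clk/Clk livers and 11.79, 11.52 and 11.57 in treated PPARalpha-null livers, against 11.25, 11.19 and 11.21 in treated wild-type livers and 12.07, 11.92 and 11.86 in untreated wild-type livers. It fell with the drug (-0.73, SE 0.0865, adjusted p = 3.73e-05), and the null difference of 0.40 (SE 0.0865, adjusted p = 0.00398) was under 1.5-fold. Kininogen 1 (Kng1), the precursor of bradykinin, averaged 13.30 ± 0.0637 in Clk/Clk, 13.48 ± 0.0937 in null, 13.10 ± 0.0313 in treated and 13.61 ± 0.0094 in untreated wild-type livers. Its drug difference of -0.51 (SE 0.0658, adjusted p = 7.13e-05) was not called, but it was called lower, at -0.77 (adjusted p = 8.53e-07), with the mean of its probe sets in place of the brightest. The 4 groups of factor XII (F12), which starts the contact pathway, overlapped, with means of 11.77 ± 0.0366 in Clk/Clk, 11.84 ± 0.0946 in null, 11.75 ± 0.0193 in treated and 11.85 ± 0.136 in untreated wild-type livers. Its drug difference was -0.10 (95% interval -0.27 to 0.07), an interval that holds no change of 1.5-fold.

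F8, the cofactor of factor IX, is made in the liver mainly by sinusoidal endothelial cells. It averaged 7.33 ± 0.0312 in Clk/Clk, 7.63 ± 0.0779 in null, 7.25 ± 0.183 in treated and 7.81 ± 0.11 in untreated wild-type livers. Its drug difference of -0.56 (SE 0.0942, adjusted p = 0.000461) was just short of 1.5-fold. F8 was called lower without treated replicate 2 or 3 or untreated replicate 2, at -0.63, -0.60 and -0.63, and with quantile normalization, at -0.63. Of 15 sinusoidal endothelial markers, 3 fell with the drug (Stab2, Clec4g and Fcgr2b). The count was 1 to 4 under the alternatives, and 1 without treated replicate 1. Their mean level was 8.03 to 8.31 in treated and 8.39 to 8.48 in untreated wild type. The part of these cells in the F8 value was not tested.

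The promoters of F11 and Klkb1 are shown because these neighbours had 2 of the 3 largest falls, and that of F7 because it had the other. Each window runs from 250 bases before to 50 bases after a RefSeq start of the gene (GRCm38.p6), the first one listed. It is written 5′ to 3′ on the gene's strand. Capitals mark letters of 3 motifs searched on both strands: the E-box CACGTG that CLOCK with BMAL1 binds, a C/EBP-type TTNNGCAA, and the nuclear receptor core AGGTCA. F11 lies at chr8:45261982-45262281 (minus strand), Klkb1 at chr8:45294786-45295085 (minus strand) and F7 at chr8:13025784-13026083 (plus strand).
F11: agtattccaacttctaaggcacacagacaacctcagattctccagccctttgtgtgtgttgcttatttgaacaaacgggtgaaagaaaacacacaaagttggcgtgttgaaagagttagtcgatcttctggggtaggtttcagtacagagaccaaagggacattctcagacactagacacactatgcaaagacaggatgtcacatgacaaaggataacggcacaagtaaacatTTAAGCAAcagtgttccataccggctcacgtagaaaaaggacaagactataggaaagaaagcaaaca
Klkb1: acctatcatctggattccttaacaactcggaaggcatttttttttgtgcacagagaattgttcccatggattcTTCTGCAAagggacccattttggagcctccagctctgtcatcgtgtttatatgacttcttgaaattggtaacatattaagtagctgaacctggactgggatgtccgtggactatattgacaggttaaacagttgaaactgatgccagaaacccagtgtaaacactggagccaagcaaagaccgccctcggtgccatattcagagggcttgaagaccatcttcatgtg
F7: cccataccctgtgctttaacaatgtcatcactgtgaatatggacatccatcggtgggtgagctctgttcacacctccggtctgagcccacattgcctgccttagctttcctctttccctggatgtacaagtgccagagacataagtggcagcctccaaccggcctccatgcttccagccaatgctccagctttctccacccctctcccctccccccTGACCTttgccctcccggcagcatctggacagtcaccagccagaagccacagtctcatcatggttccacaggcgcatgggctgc
The F11 window held TTAAGCAA starting at base -17, the Klkb1 window TTCTGCAA at -177, and the F7 window TGACCT, the nuclear receptor core on the other strand, at -34. Each position is relative to the start used for that window. The starts used for F11 and F7 lie inside the gene spans given further below, and the whole F7 window lies inside its span. None of the 3 windows held CACGTG. These matches are letters in a window, and no binding was measured.

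Fibrinogen, the precursor of fibrin, is made of 3 chains, and 2 of them were called lower with the drug (7.77% of all tested genes were). Fga had log2 values of 13.72, 13.63 and 13.74 in treated Clk/Clk livers and 14.01, 13.65 and 13.81 in treated PPARalpha-null livers, against 13.26, 12.98 and 13.13 in treated wild-type livers and 14.22, 14.07 and 14.03 in untreated wild-type livers. Fga, the alpha chain, fell 1.97-fold (-0.98, SE 0.103, adjusted p = 1.52e-05), with no overlap between treated and untreated wild type. Fgg had log2 values of 13.90, 13.77 and 13.87 in treated Clk/Clk livers and 14.21, 14.17 and 14.20 in treated PPARalpha-null livers, against 13.83, 13.70 and 13.58 in treated wild-type livers and 14.38, 14.32 and 14.40 in untreated wild-type livers. The gamma chain gene fell 1.59-fold (-0.66, SE 0.0731, adjusted p = 2.19e-05). The beta chain gene Fgb averaged 14.04 ± 0.0524 in Clk/Clk, 14.13 ± 0.0465 in null, 13.83 ± 0.0981 in treated and 14.34 ± 0.0809 in untreated wild-type livers. Its drug difference of -0.51 (SE 0.0719, adjusted p = 0.00013) was under 1.5-fold. In null against treated wild-type livers the alpha chain was called higher (0.70, SE 0.103, adjusted p = 0.000338), and the beta (0.30, adjusted p = 0.00707) and gamma (0.49, adjusted p = 0.000361) chains were under 1.5-fold.

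All 3 Clk/Clk arrays lay above all treated wild-type arrays for Fga, by a mean of 0.57 (SE 0.103, adjusted p = 0.00241), just short of 1.5-fold. The Fga difference passed 1.5-fold without Clk/Clk replicate 2 (0.61) or treated wild-type replicate 1 (0.64). F13b encodes the carrier subunit of factor XIII, the enzyme that cross-links fibrin. F13b had log2 values of 11.27, 11.24 and 11.24 in treated Clk/Clk livers and 12.04, 12.02 and 12.03 in treated PPARalpha-null livers, against 11.05, 11.10 and 10.98 in treated wild-type livers and 12.12, 12.19 and 12.08 in untreated wild-type livers. It fell 2.13-fold with the drug (-1.09, SE 0.06, adjusted p = 1.25e-07) and was higher in null than in treated wild-type livers (0.99, SE 0.06, adjusted p = 5.37e-07). Its arrays within a group were close together, with SDs from 0.0116 to 0.062.

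Fibrinogen is an acute phase protein, and most of the other acute phase genes tested were lower too. Of 14 such genes, 9 were called lower with the drug, the clearest being Saa4 (-3.42, SE 0.165, adjusted p = 4.98e-08) and Crp (-1.75, SE 0.106, adjusted p = 2.46e-07). In null against treated wild-type livers 5 were called higher (4 to 8 under the alternatives, with 8 under the replicate block), and 1, the interleukin 1 receptor antagonist gene Il1rn, was called lower (0 to 2). The lower count was 0 without null replicate 2 or treated wild-type replicate 1, and 2 without null replicate 1 or treated wild-type replicate 3. The acute phase genes' mean log2 level was 10.41, 9.52 and 9.63 in Clk/Clk, 10.88, 10.48 and 10.63 in null, 10.36, 9.70 and 9.34 in treated wild-type and 11.85, 10.89 and 11.33 in untreated wild-type livers. Within each group replicate 1 had the highest level. The part of the acute phase state in the fibrinogen values was not tested.

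The fibrinogen promoters are shown because the 3 chains lie side by side and make 1 protein. Fga lies at chr3:83025903-83026202 (plus strand), Fgb at chr3:83049814-83050113 (minus strand) and Fgg at chr3:83007474-83007773 (plus strand), with windows, build and capitals as above.
Fga: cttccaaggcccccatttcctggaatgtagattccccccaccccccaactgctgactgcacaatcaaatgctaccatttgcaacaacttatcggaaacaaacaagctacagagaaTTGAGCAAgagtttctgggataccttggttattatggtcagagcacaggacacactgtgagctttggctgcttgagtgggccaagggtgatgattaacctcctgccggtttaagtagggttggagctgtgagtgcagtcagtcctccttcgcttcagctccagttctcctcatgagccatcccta
Fgb: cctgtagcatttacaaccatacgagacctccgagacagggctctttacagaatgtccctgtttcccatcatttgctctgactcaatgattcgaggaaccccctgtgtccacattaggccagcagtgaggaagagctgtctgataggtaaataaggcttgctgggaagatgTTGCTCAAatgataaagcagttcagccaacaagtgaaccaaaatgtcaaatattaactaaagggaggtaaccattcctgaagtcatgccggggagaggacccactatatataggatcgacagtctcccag
Fgg: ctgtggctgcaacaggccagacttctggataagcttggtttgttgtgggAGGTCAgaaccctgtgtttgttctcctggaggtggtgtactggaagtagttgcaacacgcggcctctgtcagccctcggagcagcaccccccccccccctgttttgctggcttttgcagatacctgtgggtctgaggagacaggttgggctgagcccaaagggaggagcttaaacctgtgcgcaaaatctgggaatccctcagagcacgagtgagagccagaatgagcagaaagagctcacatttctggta
The Fga and Fgb windows each held a C/EBP-type match (TTGAGCAA at -135 and TTGCTCAA at -80). The Fgg window held none, and held AGGTCA at -201.

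Among the coagulation inhibitors, 4 of the 6 tested genes fell with the drug, and protein S (Pros1) and antithrombin (Serpinc1) were not called. The share of all tested genes called lower was 7.77%. Proz encodes protein Z, the cofactor of the inhibitor encoded by Serpina10. Proz had log2 values of 10.37, 10.24 and 10.42 in treated Clk/Clk livers and 11.36, 11.19 and 11.27 in treated PPARalpha-null livers, against 10.27, 10.44 and 10.32 in treated wild-type livers and 11.70, 11.68 and 11.60 in untreated wild-type livers. Treated and untreated wild type were well apart, and Proz fell 2.5-fold (-1.32, SE 0.0766, adjusted p = 1.8e-07). Null livers stood above treated wild type (0.93, SE 0.0766, adjusted p = 4.95e-06), and Clk/Clk and treated wild type overlapped, with a difference of 0.00 (95% interval -0.16 to 0.17). On the other, dimmer probe set of Proz all Clk/Clk arrays lay below the treated wild-type ones, with a difference of -0.32.

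Serpina10 encodes the protein Z dependent protease inhibitor, which acts on factor X. Serpina10 had log2 values of 11.13, 11.08 and 11.31 in treated Clk/Clk livers and 11.97, 11.91 and 11.84 in treated PPARalpha-null livers, against 11.50, 11.65 and 11.67 in treated wild-type livers and 12.81, 12.20 and 12.56 in untreated wild-type livers. It fell with the drug (-0.92, SE 0.131, adjusted p = 0.000145). Unlike Proz, it was not called higher in null livers (0.30, SE 0.131, adjusted p = 0.0961), and all Clk/Clk arrays lay below the treated wild-type ones (-0.43, SE 0.131, adjusted p = 0.0337, under 1.5-fold). Treated null livers were below untreated wild type (-0.62, SE 0.131, adjusted p = 0.00697), a difference that fell short of 1.5-fold without null replicate 3 (-0.58) or untreated replicate 1 (-0.47).

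Serpind1 encodes heparin cofactor II, a thrombin inhibitor. Serpind1 had log2 values of 11.98, 11.87 and 11.93 in treated Clk/Clk livers and 12.36, 12.23 and 12.29 in treated PPARalpha-null livers, against 11.85, 11.58 and 11.54 in treated wild-type livers and 12.66, 12.65 and 12.64 in untreated wild-type livers. The groups were separate on every array, and Serpind1 fell with the drug (-1.0, SE 0.0826, adjusted p = 2.58e-06) and was higher in null than in treated wild-type livers (0.63, SE 0.0826, adjusted p = 0.000146). Without treated wild-type replicate 3 the null difference was 0.58, just under the threshold. Protein C (Proc), which inactivates factors V and VIII, averaged 12.33 ± 0.0806 in Clk/Clk, 12.64 ± 0.0254 in null, 12.25 ± 0.0416 in treated and 12.97 ± 0.0528 in untreated wild-type livers, and fell with the drug (-0.71, SE 0.0638, adjusted p = 4.6e-06).

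Pros1 encodes protein S, the cofactor of protein C. Pros1 had log2 values of 8.26, 8.55 and 8.28 in treated Clk/Clk livers and 9.31, 9.24 and 9.19 in treated PPARalpha-null livers, against 8.51, 8.27 and 8.59 in treated wild-type livers and 9.01, 8.92 and 8.90 in untreated wild-type livers. Its drug difference of -0.49 (SE 0.0992, adjusted p = 0.00175) was under 1.5-fold. The null arrays were all above the untreated wild-type ones as well as the treated ones, and Pros1 was called higher in null than in treated wild-type livers (0.79, SE 0.0992, adjusted p = 0.000111). Antithrombin, the main inhibitor of thrombin and factor X, was not called in any of the 6 comparisons. It averaged 13.72 ± 0.0448 in Clk/Clk, 13.96 ± 0.0162 in null, 13.82 ± 0.0421 in treated and 13.95 ± 0.0351 in untreated wild-type livers, with a drug difference of -0.13 (95% interval -0.26 to -0.00, adjusted p = 0.0838).

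Of the 4 tested genes of fibrinolysis and its regulators, 3 fell with the drug, against 7.77% of all tested genes. Hrg encodes histidine-rich glycoprotein, which binds plasminogen and heparin. Hrg had log2 values of 12.50, 12.49 and 12.75 in treated Clk/Clk livers and 13.45, 13.19 and 13.14 in treated PPARalpha-null livers, against 11.77, 11.92 and 12.29 in treated wild-type livers and 13.55, 13.45 and 13.41 in untreated wild-type livers. It fell 2.79-fold (-1.48, SE 0.131, adjusted p = 4.32e-06) and was 2.41-fold higher in null than in treated wild-type livers (1.27, SE 0.131, adjusted p = 2.75e-05). Hrg was the gene called between Clk/Clk and treated wild-type livers (0.59, SE 0.131, adjusted p = 0.00773), and it lay between the treated and untreated wild-type arrays there. That difference passed the fold threshold by little: it was 0.51 without Clk/Clk replicate 3, 0.48 without treated wild-type replicate 1 and 0.55 without replicate 2.

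Serpinf2 encodes alpha-2-antiplasmin, the main plasmin inhibitor. Serpinf2 had log2 values of 11.75, 11.51 and 11.74 in treated Clk/Clk livers and 12.26, 12.07 and 12.13 in treated PPARalpha-null livers, against 11.45, 11.62 and 11.59 in treated wild-type livers and 12.82, 12.66 and 12.58 in untreated wild-type livers. It fell 2.19-fold with the drug (-1.13, SE 0.0937, adjusted p = 2.52e-06). In null livers it was higher than in treated wild type (0.60, SE 0.0937, adjusted p = 0.000504), at 0.55 and not called without null replicate 1 or treated wild-type replicate 1. Vtn encodes vitronectin, an adhesive glycoprotein of plasma. Vtn had log2 values of 12.77, 12.83 and 12.73 in treated Clk/Clk livers and 13.24, 13.35 and 13.28 in treated PPARalpha-null livers, against 12.90, 12.89 and 12.87 in treated wild-type livers and 13.61, 13.45 and 13.53 in untreated wild-type livers. It fell with the drug (-0.65, SE 0.0647, adjusted p = 1.06e-05), and its null difference of 0.40 (SE 0.0647, adjusted p = 0.000623) was under 1.5-fold, but was called at 0.61 (adjusted p = 0.000195) with the mean of its probe sets. Plasminogen (Plg), the precursor of plasmin, averaged 13.75 ± 0.0544 in Clk/Clk, 13.77 ± 0.0578 in null, 13.48 ± 0.0473 in treated and 14.03 ± 0.0497 in untreated wild-type livers. Its drug difference of -0.55 (SE 0.0632, adjusted p = 3.03e-05) was under 1.5-fold.

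Gamma-glutamyl carboxylase (Ggcx) and the vitamin K epoxide reductase subunit (Vkorc1) were not called in any of the 3 comparisons. Ggcx averaged 6.92 ± 0.0859 in Clk/Clk, 7.38 ± 0.101 in null, 6.81 ± 0.17 in treated and 7.26 ± 0.195 in untreated wild-type livers, with a drug difference of -0.44 (SE 0.112, adjusted p = 0.00683). Its null difference of 0.57 (SE 0.112, adjusted p = 0.00251) passed 1.5-fold without null replicate 1 (0.61) and without treated wild-type replicate 2 (0.60) or 3 (0.63), and with quantile normalization (0.62). With the mean of its probe sets in place of the brightest, Ggcx was called lower with the drug (-0.76, adjusted p = 0.000107) and higher in null livers (0.73, adjusted p = 0.000237). Vkorc1 averaged 12.46 ± 0.0205 in Clk/Clk, 12.83 ± 0.0347 in null, 12.50 ± 0.0864 in treated and 12.92 ± 0.025 in untreated wild-type livers, with a drug difference of -0.41 (SE 0.0619, adjusted p = 0.000217). Of the 7 vitamin K dependent proteins themselves (F2, F7, F9, F10, Proc, Pros1 and Proz), 5 fell with the drug, with a median difference of -0.71. Of all tested genes, 7.77% were called lower there. In null against treated wild-type livers 4 of the 7 were called higher, against 5.35% of all tested genes. None was called in Clk/Clk against treated wild-type livers by limma (0 at an unadjusted p under 0.05). The shares of all tested genes in that comparison were 2.64% higher and 6.49% lower, so a count of 0 among 7 is close to them. There the 7 differences of the brightest probe sets ran from -0.09 to 0.09.

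The last class held a pair of plasma proteases, both called lower with the drug, as were 7.77% of all tested genes. Hgfac encodes the hepatocyte growth factor activator, which is related to factor XII. Hgfac had log2 values of 9.49, 9.44 and 9.23 in treated Clk/Clk livers and 10.62, 10.79 and 10.63 in treated PPARalpha-null livers, against 8.57, 9.16 and 8.97 in treated wild-type livers and 10.58, 10.62 and 10.39 in untreated wild-type livers. Null and untreated wild-type arrays overlapped, and both treated wild-type and Clk/Clk arrays lay below them. Hgfac was 3.1-fold lower with the drug (-1.63, SE 0.135, adjusted p = 2.55e-06) and 3.43-fold higher in null than in treated wild-type livers (1.78, SE 0.135, adjusted p = 2.87e-06). Clk/Clk arrays were all above the treated wild-type ones, by 0.49 (SE 0.135, adjusted p = 0.023), and by 0.62 without treated wild-type replicate 2, which passed 1.5-fold.

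Habp2 encodes the factor VII activating protease. Habp2 had log2 values of 8.18, 8.18 and 7.94 in treated Clk/Clk livers and 9.34, 9.35 and 9.32 in treated PPARalpha-null livers, against 8.40, 8.66 and 8.58 in treated wild-type livers and 9.34, 9.26 and 9.37 in untreated wild-type livers. It fell with the drug (-0.78, SE 0.0863, adjusted p = 2.25e-05), and null livers were above treated wild type (0.79, SE 0.0863, adjusted p = 3.99e-05) and differed from untreated wild type by 0.01 (95% interval -0.18 to 0.20). All Clk/Clk arrays lay below the treated wild-type ones, by a mean of -0.44 (SE 0.0863, adjusted p = 0.00383, under 1.5-fold). On the other, dimmer probe set of Habp2 these groups overlapped, with a difference of -0.25.

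Treated null livers were also set against untreated wild type, where both genotype and drug differ. There 3 members, F7, F11 and Serpina10, were called lower and none higher by limma (1 was at an unadjusted p under 0.05), against 2.69% and 3.96% of all tested genes, and the median difference was -0.21. Without null replicate 3, 1 was called lower. Pros1 alone had all null arrays above all untreated ones, as did 22.6% of all tested genes (0.30, adjusted p = 0.0495, under 1.5-fold). Clk/Clk livers on the drug were lower than untreated wild type in 16 members and higher in 1, F3, against 8.82% and 10.6% of all tested genes, with a median of -0.65. Set directly against null livers, Clk/Clk livers were lower in 12 members and higher in 1, against 7.78% and 7.43%. The higher one was F3 (0.95, SE 0.264, adjusted p = 0.015), which was not called without null replicate 2 (0.64, adjusted p = 0.0541). The lower ones with the largest differences were F11 (-2.04), F7 (-1.30) and Hgfac (-1.29).

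**Figure D3:**
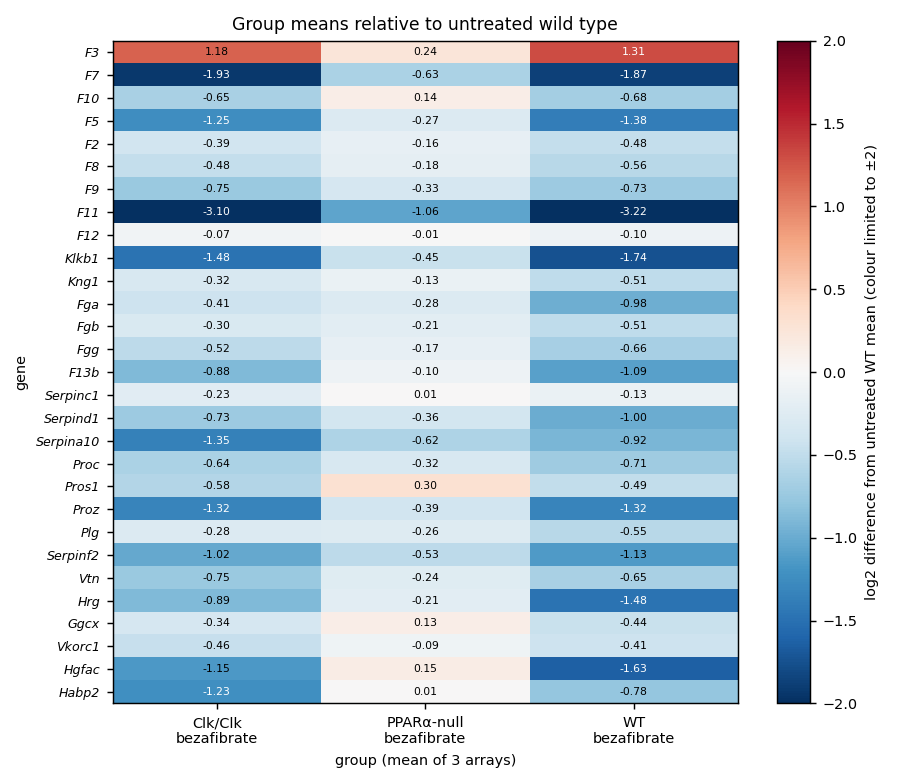
Mean log2 difference of each gene (rows) from the untreated wild-type mean in the 3 treated groups (columns, 3 arrays each), with colour limited to 2 on either side of 0. The Clk/Clk and wild-type columns hold F11 at -3.10 and -3.22, and the null column holds it at -1.06.

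Procoagulants were set against the proteins that oppose clotting or take part in clot dissolution. With the drug, 9 of 15 tested procoagulants fell and 1 rose, with a median difference of -0.68, and 7 of 10 tested inhibitors and fibrinolytic proteins fell, with a median of -0.82. Of all tested genes, 7.77% were called lower and 12.8% higher. In null against treated wild-type livers, 7 procoagulants were called higher and 1 lower (median 0.49), and 5 of the opposing genes were called higher (median 0.50). The shares of all tested genes there were 5.35% higher and 8.09% lower. The opposing list holds proteins of both directions, since alpha-2-antiplasmin slows fibrinolysis and plasminogen drives it.

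On each array the median of the procoagulants relative to their untreated means was compared with that of the opposing genes. The procoagulant median minus the opposing median was 0.27, 0.15 and 0.21 in Clk/Clk, 0.13, 0.10 and 0.08 in null, 0.05, 0.15 and -0.02 in treated wild-type and -0.03, 0.01 and 0.02 in untreated wild-type livers. The gaps of treated wild type overlapped with those of untreated livers, while both medians themselves lay between -0.66 and -0.82 there. The Clk/Clk and null gaps were above 0 on all 6 arrays. Means over the genes gave little gap. The mean differences of procoagulants and opposing genes from untreated wild type were -0.76 and -0.78 in Clk/Clk and -0.24 and -0.26 in null livers. They were -0.88 and -0.84 in treated wild type. Untreated gaps lie near 0 by construction, because values are taken relative to the untreated means. No test was made of these gaps.

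**Figure D4:**
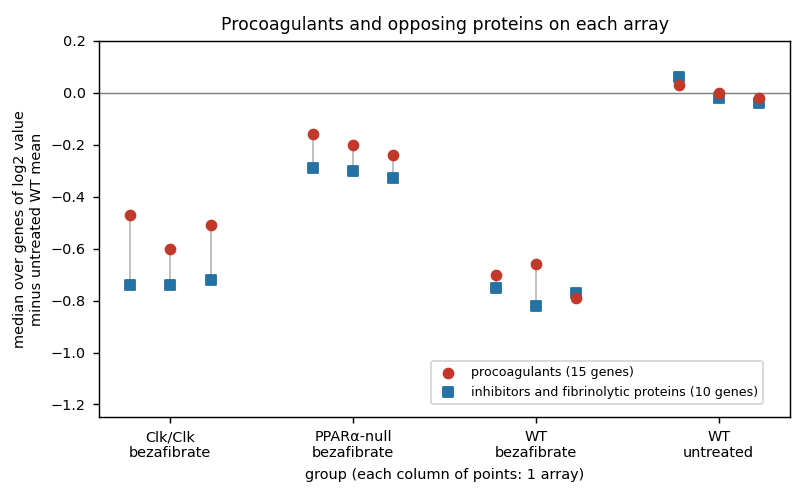
Median log2 difference from the untreated wild-type means over 15 procoagulants (circles) and 10 inhibitors and fibrinolytic proteins (squares), 1 joined pair for each array. In treated wild type both medians lie between -0.66 and -0.82, and the pairs of the Clk/Clk arrays are 0.15 to 0.27 apart.

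Several of these genes lie next to each other in the mouse genome (RefSeq, GRCm38.p6). F7 (chr8:13025506-13035809), F10 (chr8:13037308-13056676) and Proz (chr8:13060584-13076026) follow each other with gaps of 1.5 and 3.91 kb, and their drug differences were -1.87, -0.68 and -1.32. F11 (chr8:45240659-45262055) and Klkb1 (chr8:45266688-45294835) are 4.63 kb apart, with -3.22 and -1.74. The fibrinogen genes Fgg (chr3:83007724-83015056), Fga (chr3:83026153-83033627) and Fgb (chr3:83042246-83049863) are 11.1 and 8.62 kb apart, with -0.66, -0.98 and -0.51. Hrg (chr16:22951072-22961659) and Kng1 (chr16:23058220-23082078) flank Kng2, with -1.48 and -0.51.

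The drug difference was also set against brightness. Of the 8 pairs formed by a gene's brightest probe set and another one of the same gene (7 genes), the dimmer one differed more with the drug in 5. For Vtn the brightest gave -0.65 and the other -1.34, for Kng1 -0.51 and -1.04, and for Ggcx -0.44 and -1.07. For F5 (-1.38 and -1.21) and Proz (-1.32 and -1.09) the brightest differed more. Among members with an untreated mean of 13 or more, 4 of 9 fell (median -0.55), against 32.1% of the 209 tested genes at that brightness (median -0.24). From 11 to 13, 10 of 12 members fell (median -0.96), against 22.8% of 832 genes (median -0.08). From 8 to 11, 4 of 5 members fell (median -1.63), against 11.9% of 4403 genes (median 0.00). The brightness of different probe sets does not rank their genes by RNA amount.

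**Figure D5:**
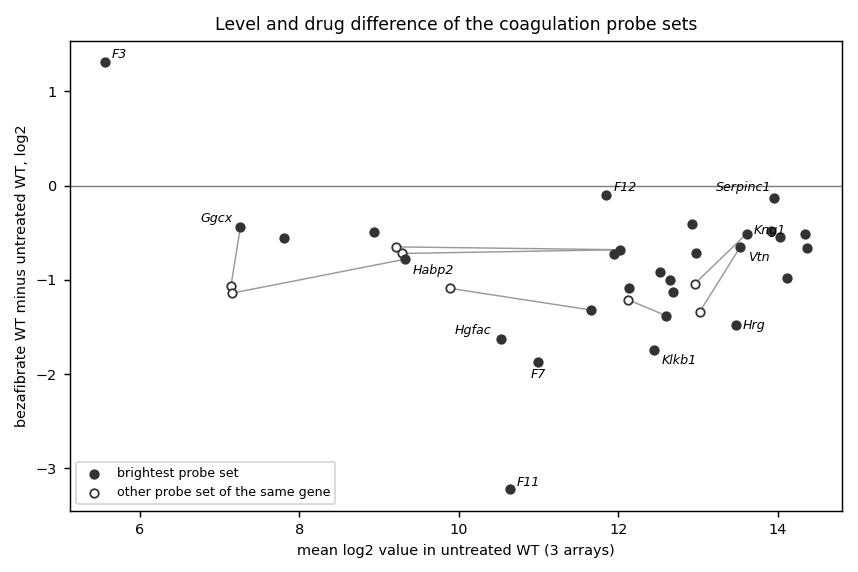
Drug difference in wild type (log2) against the untreated mean for each probe set of the tested genes, with the brightest probe set of a gene (filled) joined to its other ones (open). F11 lies lowest at -3.22, F3 alone lies above 0, and the open points of Vtn, Kng1 and Ggcx lie below their filled ones.

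Promoter windows of 28 of the 32 listed genes were searched for 6 short motifs on both strands and set against all 27025 windows of the same length and the 10926 of them that belong to tested genes. The C/EBP-type TTNNGCAA was in 12 member windows (42.9%, against 10.8% of all and 8.41% of tested) and the nuclear receptor core AGGTCA in 10 (35.7%, against 16.0% and 13.2%). The 28 windows include those of Serpina5, Cpb2 and Kng2, which were not tested. All of these held the C/EBP-type motif, and that of Kng2 also held AGGTCA. The STAT-type TTCNNNGAA was in 6 (21.4%, against 8.47% and 6.93%), TATAAA in 4 (14.3%, against 14.2% and 7.98%), and the HNF4-type core CAAAGTC in 1, Vtn (3.57%, against 4.36% and 4.07%). The E-box CACGTG was in none of the 28 (7.24% of all and 9.89% of tested genes' windows held it). In F7 and F10, 1.5 kb apart, the nuclear receptor core stood at -34 and -30, each from the start used for its window. The F7 start used lies inside the gene's span. These counts describe letters near the starts used, and no match in these windows says nothing of sites elsewhere.

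Other genes of haemostasis, from a list of 32 of which 23 were tested, moved in both directions with the drug: 5 rose and 6 fell. Those that rose included Anxa2 (2.11, SE 0.106, adjusted p = 6.73e-08), a cell surface receptor of plasminogen, and Tfpi2 (1.16, SE 0.081, adjusted p = 7.58e-07), an inhibitor of plasmin and other proteases. Thrombomodulin (Thbd), the endothelial receptor through which thrombin activates protein C, rose by 0.62 (SE 0.192, adjusted p = 0.0192). The other 2 were S100a10 (1.70), the partner of annexin A2, and the plasminogen activator Plat (0.91), both picked out after their values were seen. The untreated mean of Plat, 4.62, was below the filter level of 4.87 to 4.92, and that of Thbd, 5.58, was close to it. Those that fell included Cpn2 (-1.68), Lman1 (-0.87), whose product carries factors V and VIII out of the endoplasmic reticulum, and Serping1 (-0.88, SE 0.0745, adjusted p = 2.94e-06), the C1 inhibitor of the contact system. Tissue factor pathway inhibitor (Tfpi) was not called (-0.37, SE 0.0999, adjusted p = 0.00933).

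In null against treated wild-type livers, 3 of these 23 genes were called higher (1 of 18 tested without probe sets named _s_at, _x_at or _a_at) and 4 lower. Lman1 (0.77, SE 0.0679, adjusted p = 8.42e-06) and Cpn2 (1.32, SE 0.11, adjusted p = 5.5e-06) were higher, and Anxa2 (-1.18, SE 0.106, adjusted p = 9.57e-06) and Tfpi2 (-0.71, SE 0.081, adjusted p = 5.4e-05) were lower. Between Clk/Clk and treated wild-type livers 2 were called higher, Serpina3n (0.71, SE 0.117, adjusted p = 0.00156) and the fibrinogen-related Fgl1 (1.5, SE 0.421, adjusted p = 0.0237). There 2 were called lower, the protein C receptor Procr (-0.87, SE 0.204, adjusted p = 0.0101) and Gas6 (-0.83, SE 0.192, adjusted p = 0.00948), a protein related to protein S. The higher count was 1 without Clk/Clk replicate 1 or 3 or treated wild-type replicate 2 or 3, and the lower count was 4 without Clk/Clk replicate 2 or treated wild-type replicate 3. Of 6 genes of the hepatocyte growth factor system, none was called with the drug (3 had an unadjusted p under 0.05) or in Clk/Clk livers (4 had) by limma. There was 1, Mst1, a plasminogen-related growth factor, that was higher in null than in treated wild-type livers (0.64, SE 0.077, adjusted p = 8.54e-05).

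Over the 45037 non-control probe sets, arrays of a group correlated at 0.993 to 0.996 and arrays of different groups at 0.969 to 0.990. No array stood apart. Ppara averaged 9.88 in null, 10.78 in treated and 11.56 in untreated wild-type livers, and Clock averaged 9.25 in Clk/Clk against 8.17 in treated wild-type livers. No source at hand gave the position of either probe set in its gene, so they check neither genotype. Of 11 hepatocyte markers, 3 fell with the drug (Cps1, Tat and Ahsg), and their mean level was 14.01 to 14.07 in Clk/Clk, 14.12 to 14.21 in null, 13.85 to 13.94 in treated and 14.26 to 14.28 in untreated wild-type livers. With the drug, 1 of 10 stellate cell and 1 of 4 blood cell markers were called lower, none of 5 platelet and megakaryocyte markers was called by limma (1 had an unadjusted p under 0.05), and 1 of 3 cholangiocyte markers (Sox9) was called higher. Relative to treated wild type, in null livers the same 3 hepatocyte markers and 1 of 15 sinusoidal endothelial markers (Stab2) were called higher, and 3 of 12 macrophage, 1 of 10 stellate cell (Lrat) and 1 of 3 cholangiocyte markers (Sox9) lower. Between Clk/Clk and treated wild-type livers, 3 of 12 macrophage, 2 of 10 stellate cell and 2 of 4 blood cell markers were called lower. The part of these markers in the members' values was not tested.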

How the data were processed

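Gene expression was measured with Affymetrix arrays in 12 mouse livers, 3 in each of 4 groups taken from the labels. The deposited table holds a log2 expression value for each probe set and array. Per the submitters' processing notes they were made with RMA, which corrects background, equalises the arrays and summarises a probe set's probes. Its version and settings are not given in the sources used here. The value table held 45101 probe sets. Of the 45037 that are not controls, 34945 had 1 gene symbol in GEO's platform annotation, 932 several and 9160 none, and those with 1 symbol were used. A probe set stayed in if it was over the 40th percentile of its array on at least 3 arrays, and each gene was represented by its brightest one. This left 13598 genes, which entered 1 fit of 4 group means over all 12 arrays (lmFit and eBayes of limma 3.58.1, R 4.3.3) and adjusted by Benjamini-Hochberg. Intervals are 95% intervals of that fit. The script was tested on simulated data.

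The members and the lists of other genes and markers were chosen with earlier results of these data known, so their counts are descriptions. Single-array values are given for the members with the 3 largest differences among the called ones of each class, and group means for the others. From the other lists, up to 4 called genes with the smallest adjusted p were named per comparison, with Tfpi, Thbd, Serping1, Ppara, Clock, Hnf4a and Cebpa. The 2 other genes of this rule are not reported here. The number of arrays limits the precision. Alternatives varied the filter, the probe set per gene, the normalization, the array weights, the variance settings, the arrays used and a replicate block. Promoters are RefSeq windows (GRCm38.p6).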

Additional observations from a re-analysis of the deposited data

Results flagged for a closer look

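On their brightest probe sets, 4 members (Habp2, Serpina10, Vtn, Serpinc1) had all Clk/Clk arrays below and all null arrays above the treated wild-type arrays. The null part of this pattern held for 27 of the 29 members and for 24.3% of all tested genes. The share of all tested genes with the whole pattern was not counted, so the 4 cannot be read as many or few. On the other probe sets of Habp2 and Vtn, Clk/Clk and treated wild-type arrays overlapped, with differences of -0.25 and 0.08. The 4 were picked by this order of their arrays, which fixes the sign of the Clk/Clk minus null difference, so no test of it is given. That difference was -1.24 for Habp2 (SE 0.0863) and -0.73 for Serpina10 (SE 0.131), both over 1.5-fold. It was -0.51 for Vtn (SE 0.0647) and -0.25 for Serpinc1 (SE 0.0576), both under 1.5-fold. Against treated wild type, only the null difference of Habp2 was called among these 4. The null and Clk/Clk mice differed in strain as well as in genotype, and these cannot be told apart.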

How the results depend on the processing

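Of the members' values under all alternatives, 2728 kept their call (higher, lower or none). There were 24 that passed the thresholds and had not before, and 14 that no longer passed. No called value reversed, and changes of sign among uncalled values were not counted. With 1 array left out in turn, 18 to 19 members were called lower and 1 to 1 higher with the drug, 13 to 15 higher and 1 to 1 lower in null against treated wild type, 0 to 2 higher and 0 to 0 lower in Clk/Clk against treated wild type, 1 to 4 lower and 0 to 0 higher in null against untreated wild type, 15 to 17 lower and 1 to 1 higher in Clk/Clk against untreated wild type, and 11 to 12 lower and 0 to 1 higher in Clk/Clk against null. Under the other settings, the ranges were 15 to 20 lower with the drug, 13 to 16 higher in null and 0 to 2 higher in Clk/Clk against treated wild type. The low ends of 15 and 13 came without probe sets of the suffix types, where only 26 members were tested. Hrg, Serpina10 and Vtn, all called lower with the drug in the main fit, were not among these. The Clk/Clk count of 1 higher became 0 without probe sets of the suffix types (26 members tested, Hrg not among them), 2 with arrays shifted to 1 median (Fga at 0.59 was added) and 0 with array weights (Hrg at 0.56). Over all tested genes, most samples that share a replicate number did not deviate together (18 pairs, correlations -0.092 to 0.125, 3 over 0.1), while the mean of the acute phase genes was highest in replicate 1 of each group. With the replicate block, 18 members were called lower with the drug, 14 higher in null and 1 higher in Clk/Clk against treated wild type, and the other member counts were unchanged at 3, 16 and 12 lower. Among the other lists, added after seeing the data, the acute phase genes called higher in null livers numbered 8 with the block and 5 without it. With 3 arrays per group precision is limited, and the widest 95% interval of a drug difference, that of F3, ran from 0.73 to 1.89.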

Other observations

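Transcription factors that hepatocytes use, a list of 17 of which 15 were tested, were called lower with the drug in 7 cases and higher in none by limma (0 were at an unadjusted p under 0.05). Those with the smallest adjusted p were Cebpa (-1.21, SE 0.0874, adjusted p = 9.09e-07), Foxa3 (-1.37, SE 0.104, adjusted p = 1.35e-06), Esr1 (-2.09, SE 0.174, adjusted p = 2.63e-06) and Nr1h4 (-0.66, SE 0.0801, adjusted p = 4.65e-05). Hnf4a, a nuclear receptor central to hepatocyte identity, also fell (-0.69, SE 0.0893, adjusted p = 7.3e-05). Cebpa encodes C/EBP alpha, Foxa3 a forkhead factor, Esr1 an oestrogen receptor and Nr1h4 the bile acid receptor FXR.

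In null against treated wild-type livers 3 were called higher, namely Cebpa (0.93, SE 0.0874, adjusted p = 1.32e-05), Esr1 (1.67, SE 0.174, adjusted p = 2.82e-05) and Onecut1 (1.27, SE 0.228, adjusted p = 0.00136), and Hnf4a was not called (0.39, SE 0.0893, adjusted p = 0.00567). In Clk/Clk against treated wild-type livers 2 were called lower, Esr1 (-2.22, SE 0.174, adjusted p = 2.6e-05) and Onecut1 (-0.76, SE 0.228, adjusted p = 0.0326), and 1 was called lower without Clk/Clk replicate 1 or 3 or treated wild-type replicate 1 or 3. Whether any of these factors has a part in the values of the clotting genes was not tested.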
